A study of Mus musculus with 12 samples.

Results

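The 10 genes followed here mark the hepatocytes around the central vein, the pericentral Wnt zone, and were read from RNA-seq counts of mouse liver at 3 ages. The markers were Glul, Oat, Lgr5, Axin2, Rhbg, Slc1a2, Tbx3, Lect2, Gulo and Rnf43, chosen by name, and all 10 were found by their Ensembl identifiers among the 53465 genes of the count table. Each had at least 1 count in every one of the 12 libraries. By a looser measure, 28449 genes of the whole table had at least 1 count in at least 1 library, and the number with a count in every library is not given here. The livers came from C57BL/6N mice aged 3 months (the young group), 12 months (the middle-aged group) or 18 months (the aged group). Each age had 4 livers, treated here as separate animals. The study's methods describe male mice, but the study also used a public atlas, so whether they cover these livers is uncertain. No transgene, deletion or treatment was given for any group. Whole liver was sampled, so for every value below fewer cells of a type and less RNA per cell cannot be told apart.

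The liver lobule is organised between portal veins, where blood enters, and a central vein, where it leaves. Endothelial cells of the central vein secrete Wnt ligands and R-spondin, which stabilise β-catenin in the neighbouring hepatocytes and so maintain their gene programme. The innermost layer makes glutamine from ammonia that escaped the periportal urea cycle, and it also takes up glutamate and ammonium. The pathway restrains itself: Axin2 and Rnf43 are induced by β-catenin and act against it, while Lgr5 binds R-spondin and protects Wnt receptors from Rnf43 and its relative Znrf3.

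At the level of DNA, β-catenin acts through TCF/LEF factors, which recognise short words around CTTTG. RefSeq promoter windows of GRCm38.p6 (250 bases before to 50 after a transcript start) matched 6 of the 10 markers, with 7 windows in all. Both strands were searched for the 7-base word CTTTGAA and for its variants CTTTGAT or CTTTGTA or else CTTTGTT, which cannot overlap one another on 1 strand. A match stood in 2 of the 7 windows, in Slc1a2 and in Lect2, and in 16.88% of all 32851 windows. The short stretches around both matches are shown because they hold the same word, ATCAAAG, which is CTTTGAT read from the other strand, and capitals mark it. The Slc1a2 stretch lies at chr2:102706220-102706248 on the plus strand, its match beginning 207 bases before a transcript start that is internal to the annotated gene, and the Lect2 stretch at chr13:56548553-56548581 on the minus strand, beginning 32 bases before the start.
Slc1a2: agaagagggacATCAAAGgccccaaatgg
Lect2: tgcttctccagATCAAAGgctttggccgg
The windows of Glul, Oat, Axin2 and Rnf43 (2 windows) held none of these words. A match of letters is a description and not a binding site.

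The libraries held 8124312 (young replicate 3) to 10527159 gene counts (middle-aged replicate 2), so that 3 counts were worth a CPM of 0.285 to 0.3693. Several libraries stood apart. Young replicate 3 had 22284 genes with a count and middle-aged replicate 1 had 19982, against 16361 to 17563 in the others, and mitochondrial genes took 19.16% of counts in young replicate 2 against 5.481 to 10.682% elsewhere. The relative abundances of 31 synthetic spike-in RNAs split the libraries, at every age, into a set A of replicates 1 and 2 and a set B of replicates 3 and 4. Correlations were 0.997 or more inside the sets and 0.925 or less across them. Spike-ins took 3.5, 10.633, 6.234 and 3.978% of all counts in young replicates 1 to 4. They took 1.589 to 2.729% in middle-aged and 1.875 to 3.513% in aged libraries, and the cause was not tested. Hepatocyte markers (Alb, Ttr, Apoa1, Serpina1c and Hnf4a) summed to between 684400 and 938000 normalised read counts in every library. Normalised read counts here are counts divided by DESeq2 size factors.

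Per unit of transcript length, the markers spanned a wide range of levels. Mean TPM (length-scaled counts relative to the library total, computed here from exonic lengths) were highest for Oat at 1080 (range over the 12 livers 633.5 to 1751), followed by Gulo at 460.7, Glul at 403.2 and Lect2 at 229.7. The next was Slc1a2 at 14.25, and below it came Tbx3 at 9.468, Rnf43 at 7.465, Rhbg at 2.208, Axin2 at 2.192 and Lgr5 at 0.985. Metabolic and secreted products thus stood far above the receptors and regulators of the pathway. In this order, only Oat and Gulo, and Lect2 and Slc1a2, had ranges over the livers that did not overlap; every other neighbouring pair overlapped.

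Counts differed as widely, and precision did not follow them alone. Raw counts lay between 2 and 35 in a library for Rhbg, between 21 and 70 for Lgr5 and between 28 and 80 for Axin2, against at least 4907 for Glul. The standard error of the log2 fold change from young to aged was 0.62 for Rhbg, 0.33 for Axin2 and 0.30 for Lgr5, while Tbx3, with more counts than these, had 0.52. Rhbg shares 1190 exonic bases with the annotated gene Gm38392 on the same strand, and Tbx3 shares 115 with Tbx3os1 on the other strand. Gm38392 had 1 count over all libraries, and Tbx3os1 had 210 against 3255 for Tbx3; how strand was used in counting was not given in the sources used here.

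**Figure D1:**
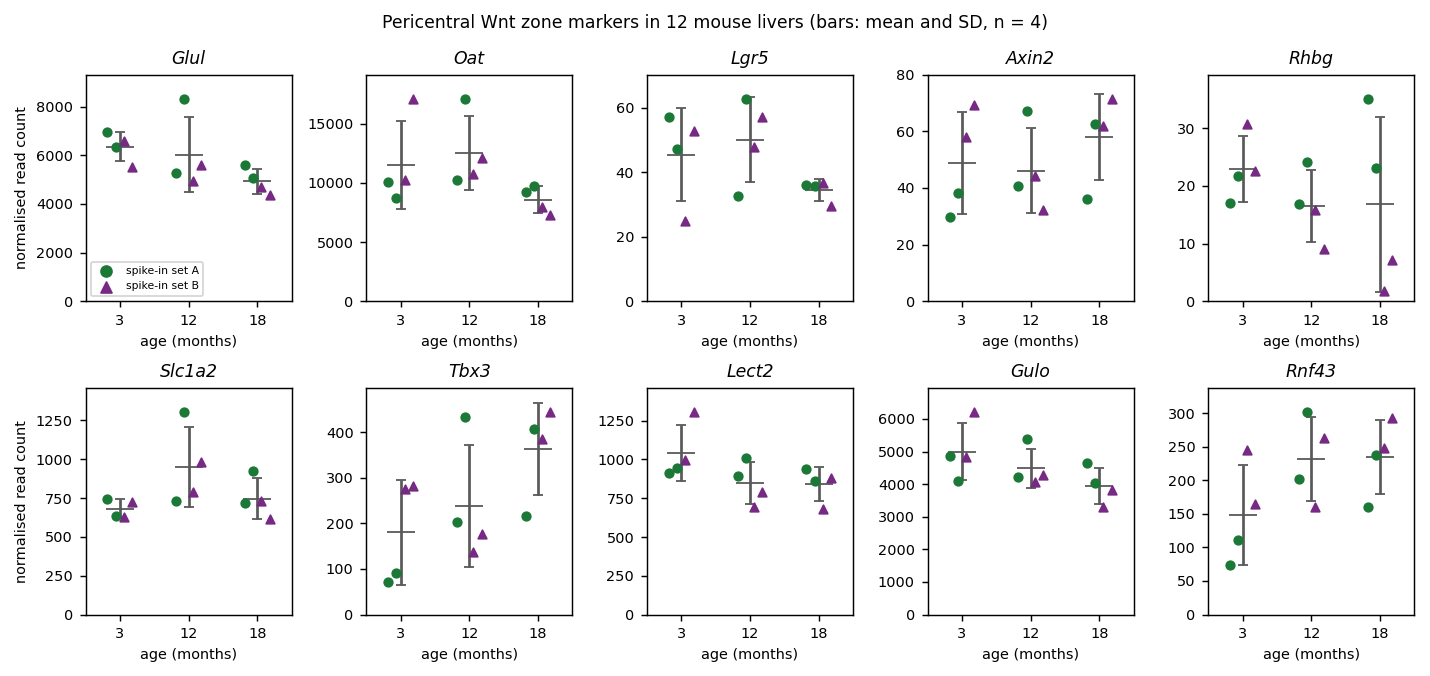
Normalised read counts of the 10 markers (vertical axes) against age in months, with circles for livers of spike-in set A, triangles for set B, and bars for the mean and SD of 4 livers. The 4 aged livers had less Oat than each middle-aged liver, while Tbx3 in young livers split between 71.1 and 90.4 in set A and 276.1 and 283.1 in set B.

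The first question was whether the zone's metabolic enzymes, and the secreted protein Lect2, changed with age. Glul, Oat, Gulo and Lect2 had lower means in aged than in young livers, by 0.31 to 0.43 on the log2 scale, and none of the 4 passed the test over all genes. In this order, the log2 fold changes within spike-in set A were -0.314, 0.015, -0.047 and -0.043. Within set B they were -0.417, -0.843, -0.635 and -0.563, with 2 livers per age in each set. Glul (glutamine synthetase, chromosome 1, 153899944 to 153909723, GRCm38) had 6950.5, 6337, 6599 and 5530.5 normalised counts (young livers 1 to 4), 5288, 8325, 4926 and 5596.5 (middle-aged) and 5592, 5076, 4714 and 4386 (aged). Middle-aged replicate 2 was the highest liver, and aged replicate 1 lay just above the lowest young liver, so the groups overlapped. Between young and aged livers the log2 fold change was -0.36 (95% interval -0.66 to -0.06, DESeq2 adjusted p = 0.184), and from young to middle-aged -0.07 (-0.38 to 0.23, adjusted p = 0.834).

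Oat (ornithine aminotransferase, which links ornithine to glutamate; chromosome 7, 132557478 to 132576398) had 10104, 8746, 10243 and 17044 normalised counts (young), 10262.5, 17098, 10757 and 12095 (middle-aged) and 9269, 9727, 7996 and 7252 (aged). All aged livers lay below all middle-aged ones, while the young livers overlapped with both groups, young replicate 4 lying near the top of the middle-aged range and young replicate 2 within the aged range. From middle-aged to aged livers the log2 fold change of Oat was -0.55 (interval -0.96 to -0.15), which missed the threshold (adjusted p = 0.22), as did that of -0.43 from young to aged (adjusted p = 0.271). Without young replicate 4, the pooled fit gave an adjusted p of 0.0487 for aged against middle-aged at the same fold change.

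Gulo encodes L-gulonolactone oxidase, the last enzyme of vitamin C synthesis (chromosome 14, 65986786 to 66009207). Its normalised counts were 4854, 4105, 4837 and 6210 (young), 4231, 5379, 4056 and 4284 (middle-aged) and 4635.5, 4021.5, 3310 and 3823 (aged). The lowest young liver was below the highest aged one. Gulo differed by -0.34 on the log2 scale between young and aged livers (interval -0.62 to -0.06, adjusted p = 0.176), and it was -0.43 with an adjusted p of 0.0343 when aged replicate 1 was left out.

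Lect2, a protein that hepatocytes secrete into blood (chromosome 13, 56542464 to 56548502), had 911, 946, 996.5 and 1305 normalised counts (young), 893, 1011, 690.5 and 793 (middle-aged) and 936, 862, 681 and 882 (aged). Its values in both older groups lay within or below the young range. Against young livers the log2 fold change of Lect2 was -0.30 in middle-aged (adjusted p = 0.235) and -0.31 in aged livers (adjusted p = 0.293).

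The transporters of glutamate and ammonium were not called either. Slc1a2, the glutamate transporter GLT-1 (chromosome 2, 102658659 to 102790784), had 744, 632, 628 and 723 normalised counts (young), 732, 1304, 788.5 and 979 (middle-aged) and 717, 928, 731.5 and 613 (aged). Middle-aged livers were on average highest, led by replicate 2, and middle-aged replicate 1 lay within the young range. From young to middle-aged livers the log2 fold change was 0.48 (interval 0.13 to 0.83, adjusted p = 0.0799), the smallest adjusted p of any marker in the comparisons of all livers. Leaving out middle-aged replicate 1 gave 0.59 with an adjusted p of 0.028, and leaving out middle-aged replicate 2, the highest liver, gave 0.29 with an adjusted p of 0.292.

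Rhbg, an ammonium transporter of the Rh family (chromosome 3, 88242874 to 88254709), had 17.0, 21.7, 30.8 and 22.5 normalised counts (young), 16.9, 24.2, 15.9 and 9.0 (middle-aged) and 35.1, 23.1, 1.7 and 7.2 (aged). Aged livers held both the highest and the lowest values, those of set A above those of set B. The log2 fold change from young to aged was -0.46 with an interval from -1.68 to 0.76, so neither a fall nor a rise could be resolved. Within set A it was 0.60 (adjusted p = 0.9999) and within set B -2.585 (adjusted p = 0.131). DESeq2 gave Rhbg no adjusted p for aged against middle-aged, where its mean count fell below the independent filter.

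The pathway's own components came next. Lgr5, the R-spondin receptor (chromosome 10, 115450311 to 115587780), had 57.3, 47.1, 24.9 and 52.7 normalised counts (young), 32.8, 62.8, 47.7 and 57.1 (middle-aged) and 36.1, 35.6, 36.7 and 29.5 (aged). Aged livers were close to each other (SD 3.36, against 14.4 in young and 13.1 in middle-aged livers) and lay inside the range of the young. For Lgr5 DESeq2 gave a log2 fold change of -0.41 from young to aged (interval -0.98 to 0.17, adjusted p = 0.554) and -0.54 from middle-aged to aged (-1.11 to 0.03, adjusted p = 0.545).

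Axin2, a scaffold of the complex that destroys β-catenin and a standard readout of the pathway (chromosome 11, 108920349 to 108950783), had 29.7, 38.2, 58.1 and 69.3 normalised counts (young), 40.7, 67.3, 44.2 and 32.1 (middle-aged) and 36.1, 62.6, 62.0 and 71.5 (aged). The ranges of the 3 ages nearly coincided. The log2 fold change from young to aged was 0.25 (interval -0.40 to 0.89, adjusted p = 0.796).

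Rnf43, the ubiquitin ligase that removes Wnt receptors from the cell surface (chromosome 11, 87662722 to 87735539), had 73.2, 110.8, 245 and 165 normalised counts (young), 202.5, 302, 160 and 263 (middle-aged) and 160, 238, 248 and 292 (aged). Young replicates 1 and 2 lay below every older liver, and young replicate 3 lay within the older ranges. The log2 fold change against young was 0.66 in aged (interval 0.04 to 1.28, adjusted p = 0.272) and 0.64 in middle-aged livers (0.02 to 1.27, adjusted p = 0.214). Without young replicate 3, which had the most genes detected, both passed, at 1.01 (adjusted p = 0.0261) and 0.99 (adjusted p = 0.0268).

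Tbx3, a T-box transcription factor and β-catenin target (chromosome 5, 119670669 to 119684724), had the largest difference among the markers. Its normalised counts were 71.1, 90.4, 276.1 and 283.1 (young), 202.5, 434, 137 and 177 (middle-aged) and 216, 406.5, 385 and 444 (aged). Values within an age varied most in young livers (coefficient of variation 63.9%, against 56.2% and 27.9% at the older ages). The log2 fold change from young to aged was 1.01 with an interval from -0.01 to 2.03 (adjusted p = 0.323).

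**Figure D2:**
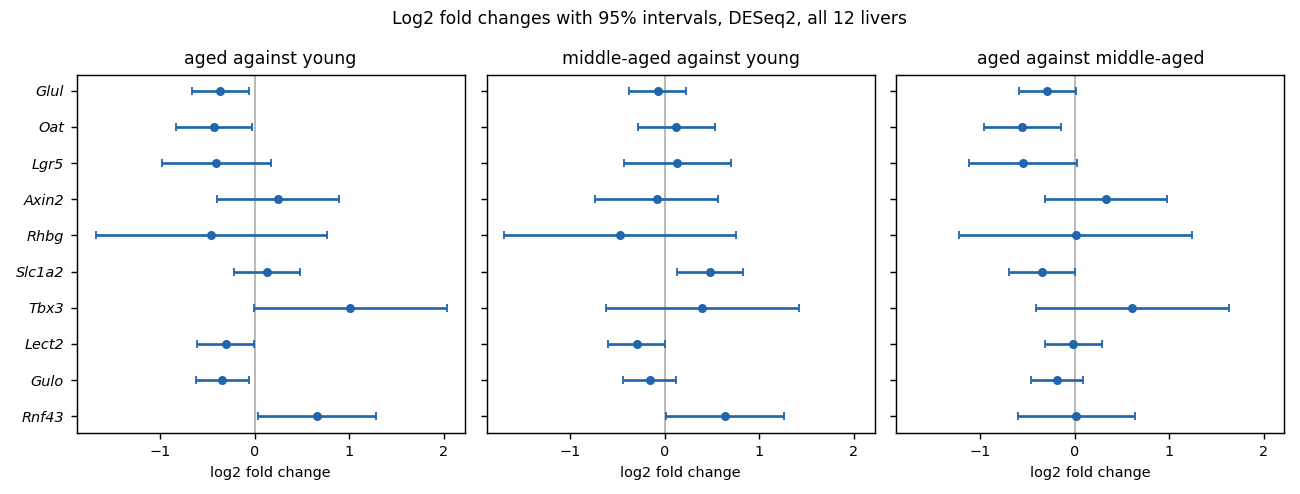
Log2 fold changes of the 10 markers for the 3 pairs of ages, from DESeq2 over all 12 livers, with bars for 95% intervals. The largest difference, 1.01 for Tbx3 in aged against young, had an interval that reached below 0, and intervals were widest for Rhbg.

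Over the 3 pairs of ages and the test of any difference across ages, DESeq2 called none of the markers that it tested (10, 10, 9 and 10) at an adjusted p under 0.05. Of all genes tested it called 3.58% for aged against young, 6.41% for middle-aged against young, 1.14% for aged against middle-aged and 6.96% across the 3 ages. The quasi-likelihood test of edgeR also called none, against 1.42%, 2.31%, 0.107% and 1.93% of all genes. At an unadjusted DESeq2 p under 0.05 there were 5, 2, 1 and 3 markers (edgeR: 5, 1, 1 and 2), against 15.9%, 21.7%, 9.94% and 20.5% of all genes. Groups did not overlap for 0, 0 and 1 marker (Oat) in the 3 pairs, against 7.53%, 16.0% and 6.55% of all genes. The median log2 fold change of the tested markers was -0.33 for aged against young, 0.02 for middle-aged against young and -0.18 for aged against middle-aged, where the medians of all tested genes were within 0.007 of 0. The tested markers were split in direction, with 4 higher and 6 lower, 5 and 5, and 3 and 6 in these pairs. For aged against young the largest differences were rises, 1.01 for Tbx3 and 0.66 for Rnf43, neither called.

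Whether the age differences were alike in both spike-in sets was asked after the values of Tbx3 in each library had been seen. A DESeq2 test of the interaction between age and set called Tbx3 (adjusted p = 4.79e-05) and no other marker, against 1.6% of 11351 genes tested. In young livers the mean of Tbx3 was 80.8 in set A and 279.6 in set B, in middle-aged livers 318 and 157, and in aged livers 311 and 415. The order of the sets thus turned between young and middle-aged livers. In set A, with 2 livers per age, Tbx3 rose from young to middle-aged by 1.98 (adjusted p = 4.19e-05) and from young to aged by 1.955 (adjusted p = 8.01e-05) on the log2 scale, whereas the difference from middle-aged to aged was -0.03. In set B it fell from young to middle-aged (-0.84, adjusted p = 0.0143) and rose from middle-aged to aged (1.41, adjusted p = 2.64e-07), with 0.57 from young to aged (adjusted p = 0.18).

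Rnf43 showed a like division without passing the interaction test (adjusted p = 0.319). Its young mean was 92.0 in set A and 205 in set B, and it rose from young to middle-aged by 1.46 in set A (adjusted p = 0.00186), where set B gave 0.03. In set B, Glul and Gulo were lower in aged than in young livers (-0.42, adjusted p = 0.0228, and -0.64, adjusted p = 0.000271), and Lect2 was lower in middle-aged than in young livers (-0.65, adjusted p = 0.0176). The corresponding values in set A were -0.31, -0.05 and 0.04. These differences between sets were not called for Glul, Gulo or Lect2 by the interaction test (adjusted p = 0.9999, 0.513 and 0.453).

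The markers called within set A were 1 for aged against young, 2 for middle-aged against young and 0 for aged against middle-aged, when 1.24%, 2.18% and 0.307% of all genes were called. In set B they were 2, 2 and 1, when 4.22%, 3.64% and 2.47% of all genes were called; 7 of the markers were tested for middle-aged against young there. Each of these fits rests on 2 livers per age. Young replicates 1 and 2 also held the 2 highest mitochondrial shares of all libraries (10.682 and 19.16%), and young replicate 3 the most detected genes; the part of either in the Tbx3 and Rnf43 values was not tested.

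**Figure D3:**
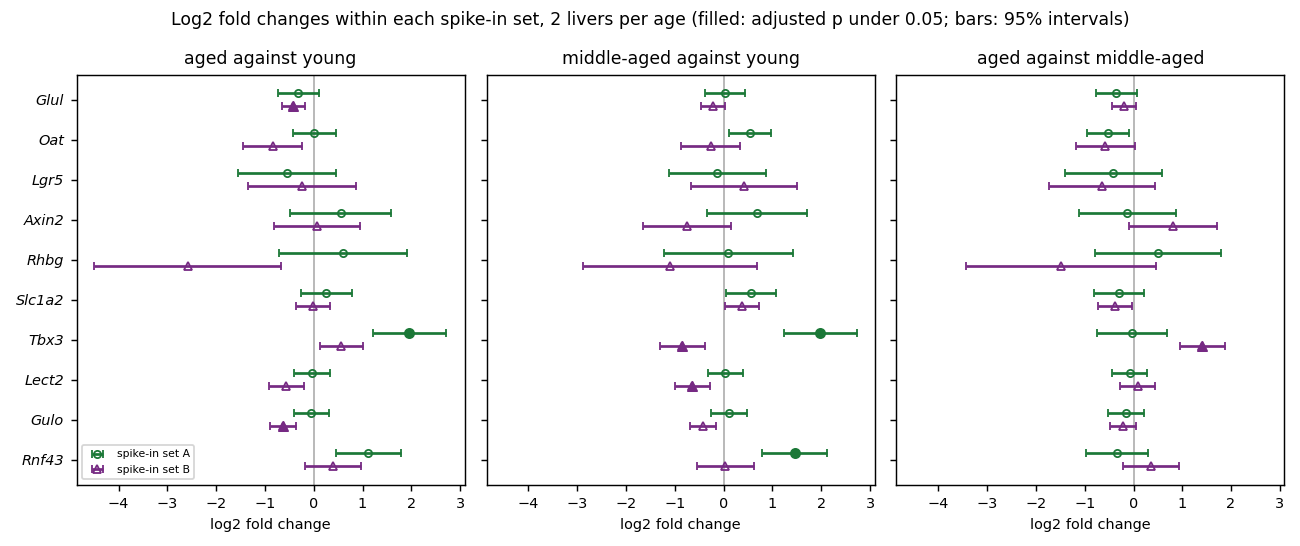
Log2 fold changes within spike-in set A (circles) and set B (triangles), 2 livers per age in each, with 95% intervals and filled symbols for DESeq2 adjusted p under 0.05. Tbx3 lay at 1.98 in set A and -0.84 in set B for middle-aged against young, the one marker called in opposite directions.

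The next question was how the markers varied together among the 12 livers. Pearson's r and Spearman's rho of log2(normalised count + 1) were computed first between Glul and the other 9 markers. Gulo was nearest to Glul (r = 0.627, permutation p = 0.0297, adjusted p = 0.222 over the 9 relations; rho = 0.783, permutation p = 0.004, adjusted p = 0.036). None of the 9 passed by Pearson's r. Without the livers farthest from the median of Glul, middle-aged replicate 2 and aged replicate 4, r for Gulo was 0.498, and within sets A and B it was 0.839 and 0.624. Oat (0.562), Rhbg (0.538), Lgr5 (0.472), Lect2 (0.459) and Slc1a2 (0.437) had positive values, and Axin2 (-0.187), Rnf43 (-0.237) and Tbx3 (-0.26) negative ones, all short of the threshold. Without the same 2 livers, r was 0.05 for Oat and 0.099 for Lgr5, and it turned to -0.445 for Slc1a2. The permutations shuffled livers across ages, so differences with age shared by 2 markers enter these values. As deviations from the age means, r was 0.421 for Gulo, 0.38 for Oat, 0.408 for Rhbg, 0.314 for Lgr5 and 0.309 for Lect2. For Slc1a2 it was 0.718.

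Over all 45 pairs of markers, examined after the correlations had been seen, 4 passed an adjusted permutation p of 0.05 by Pearson's r. The share of pairs of other genes with such values is not given here, so this count has no background. Tbx3 was in 2 of these pairs and Gulo in the other two. Axin2 and Tbx3 had r = 0.852 (permutation p = 0.00044, adjusted p = 0.009; rho = 0.867, permutation p = 0.00046, adjusted p = 0.0207), and r was 0.826 without the 2 livers farthest in Axin2, 0.892 in set A, 0.806 in set B and 0.907 as deviations from the age means. Tbx3 and Rnf43 had r = 0.875 (permutation p = 0.0003, adjusted p = 0.009; rho = 0.762, permutation p = 0.00511, adjusted p = 0.0575), with 0.651 without young replicates 1 and 2, the livers farthest in Tbx3, and 0.964 and 0.558 in sets A and B. Axin2 and Rnf43, the third pair of these regulators, did not pass (r = 0.637, permutation p = 0.0219, adjusted p = 0.139), with 0.89 in set A and 0.013 in set B. Each liver contributes its values from 1 library.

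Gulo was paired with Lect2 and with Oat. Lect2 and Gulo had r = 0.859 (permutation p = 0.0006, adjusted p = 0.009; rho = 0.804, permutation p = 0.00264, adjusted p = 0.0575), and Oat and Gulo had r = 0.826 (permutation p = 0.00101, adjusted p = 0.0114; rho = 0.699, permutation p = 0.0144, adjusted p = 0.108). Without the 2 farthest livers these were 0.595 and 0.552, within set A 0.747 and 0.785, and within set B 0.903 and 0.871. Oat and Lect2 did not pass (r = 0.561, permutation p = 0.0613, adjusted p = 0.212), with -0.032 without middle-aged replicate 2 and young replicate 4. By Spearman's rho, Axin2 with Tbx3 was the 1 pair of the 45 that passed. With each liver left out in turn, r stayed between 0.726 and 0.938 for the 4 pairs.

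**Figure D4:**
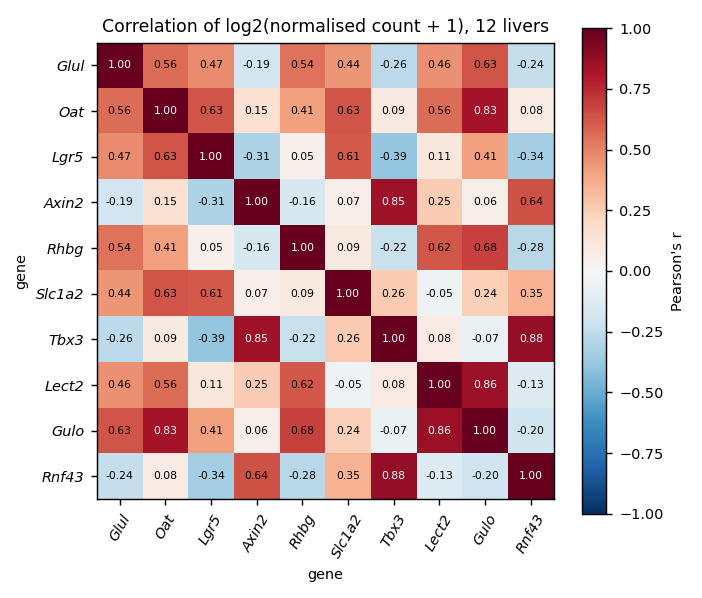
Pearson's r between each pair of markers over 12 livers, on log2(normalised count + 1), with red for positive and blue for negative values. The highest values, those of the 4 pairs that passed, were 0.88 for Tbx3 with Rnf43, 0.86 for Lect2 with Gulo, 0.85 for Axin2 with Tbx3 and 0.83 for Oat with Gulo, and the next was 0.68 for Rhbg with Gulo.

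Among 8887 other genes averaging 50 or more normalised counts, the patterns most like that of Glul over the 12 livers were those of Tesk2 (r = 0.891), Lyplal1 (0.867) and Tmem62 (0.834). By the same measure Gulo had rank 108, Oat 236, Lect2 655 and Slc1a2 798. Axin2, Rnf43 and Tbx3 had ranks 6507, 6998 and 7222. Lgr5 (r = 0.472) and Rhbg (r = 0.538) averaged fewer than 50 normalised counts and were not ranked. These are given as a description.

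Genes that flank the markers in the lobule gave a background for these values. Of 23 other pericentral hepatocyte genes, all tested, 1 was higher and 1 lower in aged than in young livers, with a median log2 fold change of 0.11. Cyp1a2, a pericentral cytochrome P450 that oxidises caffeine, fell by 0.76 on the log2 scale (SE 0.16, adjusted p = 0.00037), from 6160 ± 751 to 3641 ± 823 normalised counts (SD, n = 4), and no aged liver reached the lowest young one. Cyp2c37, of a P450 family with near-identical copies whose counts are uncertain, rose by 1.04 (SE 0.19, adjusted p = 3.36e-05). Cyp2e1, the ethanol-oxidising P450 of the same zone, had 44680 ± 8743 in young and 53800 ± 1997 in aged livers (log2 fold change 0.27, adjusted p = 0.257). Named pericentral genes therefore lay on both sides of 0.

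From young to middle-aged, 2 of the 23 rose, Cyp2c37 by 0.89 and Por, the P450 reductase, by 0.67 (adjusted p = 0.00579), and 2 fell, Cyp1a2 (-0.58, adjusted p = 0.00959) and the steroid dehydrogenase Akr1c6 (-0.39, adjusted p = 0.0275). From middle-aged to aged, Por fell by 0.93 (adjusted p = 9.46e-05) and was the 1 gene of the 23 called. By edgeR none of Por's differences passed (adjusted p = 0.0557 and 0.0645), nor did Akr1c6 (0.104) or Cyp1a2 in middle-aged livers (0.0646). Left-out livers ended the middle-aged call of Por without middle-aged replicate 2 (adjusted p = 0.0501) and that of Akr1c6 in 5 of 12 cases (adjusted p up to 0.13), those without young replicate 2 or 4 or middle-aged replicate 1, 2 or 3.

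Of 20 periportal hepatocyte genes, 1 rose and 1 fell from young to aged. Pigr, the receptor that carries IgA into bile, rose by 0.55 (adjusted p = 7.12e-07), and Arg1, the last urea cycle enzyme, fell by 0.32 (adjusted p = 0.0312; edgeR 0.149). The call of Arg1 was lost without young replicate 1, 2 or 3, middle-aged replicate 2 or aged replicate 2 or 3 (adjusted p up to 0.139). In middle-aged against young livers Pigr (0.35, adjusted p = 0.00437; edgeR 0.0853) and Fbp1 of gluconeogenesis (0.35, adjusted p = 0.00107; edgeR 0.0694) were higher, and none of the 20 was called between middle-aged and aged livers. Cyp2f2, a P450 typical of the periportal zone, had log2 fold changes of -0.36 and -0.32 against young (adjusted p = 0.393 and 0.35). The median of the list was -0.13 for aged against young (8 genes above 0 and 12 below), beside -0.33 for the markers (4 above and 6 below).

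The Wnt ligands that supply the zone had few counts. Raw counts lay between 1 and 13 in a library for Wnt9b, 7 and 35 for Wnt2 and 25 and 70 for Rspo3. Of 25 ligands, R-spondins and secretion factors, 22 had a count, 13, 9 and 6 were tested in the 3 pairs of ages, and none was called by DESeq2, with 0, 0 and 1 at an unadjusted p under 0.05. Wnt2, an endothelial ligand, had 30.3 ± 6.41 (young), 24.4 ± 8.51 (middle-aged) and 17.7 ± 7.89 (aged) normalised counts (SD, n = 4). Every aged liver was below every young one (22.1, 23.1, 6.1 and 19.7 against 26.5, 39.5, 29.6 and 25.4), with a log2 fold change of -0.77 (interval -1.58 to 0.04, adjusted p = 0.348). Wnt9b had 8.62 ± 3.52, 3.65 ± 3.13 and 6.96 ± 4.57, and Rspo3, the R-spondin of central vein endothelium, 36.3 ± 9.86, 38.0 ± 6.16 and 48.1 ± 10.7, neither of them called. Markers of sinusoidal and central vein endothelium (12 genes, all with counts) summed to 1560 to 2696 (young), 1712 to 2056 (middle-aged) and 1820 to 1971 (aged) normalised counts, and none was called. Such sums weigh genes by their counts, with young means of 461 for Clec4g and 34.6 for Kit. Of the 11 tested for aged against young, 3 lay above 0 and 8 below, with a median log2 fold change of -0.186.

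Of 17 receptors, 12, 11 and 10 were tested, and 1 was called: the co-receptor Lrp6, higher in middle-aged than in young livers by 0.49 (adjusted p = 0.0402; edgeR 0.0985). This call did not survive in 8 of 12 fits without 1 liver (adjusted p up to 0.182), and stood in those without young replicate 1 or aged replicate 1, 2 or 3. Lgr4, the R-spondin receptor related to Lgr5, had 430 ± 105, 467 ± 31.9 and 380 ± 40.3 normalised counts in young, middle-aged and aged livers, with no call.

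Among 21 inhibitors and feedback genes, of which 12, 9 and 7 were tested, Znrf3 was the 1 called. Znrf3, the partner of Rnf43 in removing Wnt receptors, had 70.1, 53.5, 69.9 and 45.9 normalised counts (young), 97.3, 115.8, 90.9 and 124.3 (middle-aged) and 54.2, 71.3, 90.0 and 59.9 (aged). All middle-aged livers lay above all young and aged ones. It rose by 0.84 from young to middle-aged (SE 0.22, adjusted p = 0.0062; edgeR 0.0413), and aged against middle-aged gave -0.63 (adjusted p = 0.132). Within sets A and B the rise was 0.78 and 0.89, neither called with 2 livers per age. The feedback genes Nkd1 (56.2 ± 14.1, 75.0 ± 18.0 and 58.9 ± 18.3) and Notum (121 ± 15.4, 111 ± 13.7 and 102 ± 27.7) were not called.

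Of 19 genes of the destruction complex and the nuclear effectors, 1 of 19 tested was higher in aged than in young livers and 2 of 18 in middle-aged than in young livers. Bcl9l, a co-activator of β-catenin, rose by 0.49 from young to aged (adjusted p = 0.000262) and by 0.45 to middle-aged (adjusted p = 0.00103), with all 8 older livers between 354.3 and 457.5 normalised counts and all young ones between 290.8 and 309.5. Apc, which scaffolds the destruction complex, was higher in middle-aged livers by 0.58 (adjusted p = 0.0217; edgeR 0.0714), a call lost without young replicate 2 or 3 or middle-aged replicate 2 or 4 (adjusted p up to 0.109). Within either set alone neither Bcl9l nor Apc was called. Ctnnb1, which encodes β-catenin itself, had 1547 ± 133, 1698 ± 77.1 and 1535 ± 101 normalised counts, and Tcf7l2, its main DNA-binding partner in liver, 90.1 ± 19.3, 118 ± 15.7 and 96.8 ± 15.8, neither called.

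**Figure D5:**
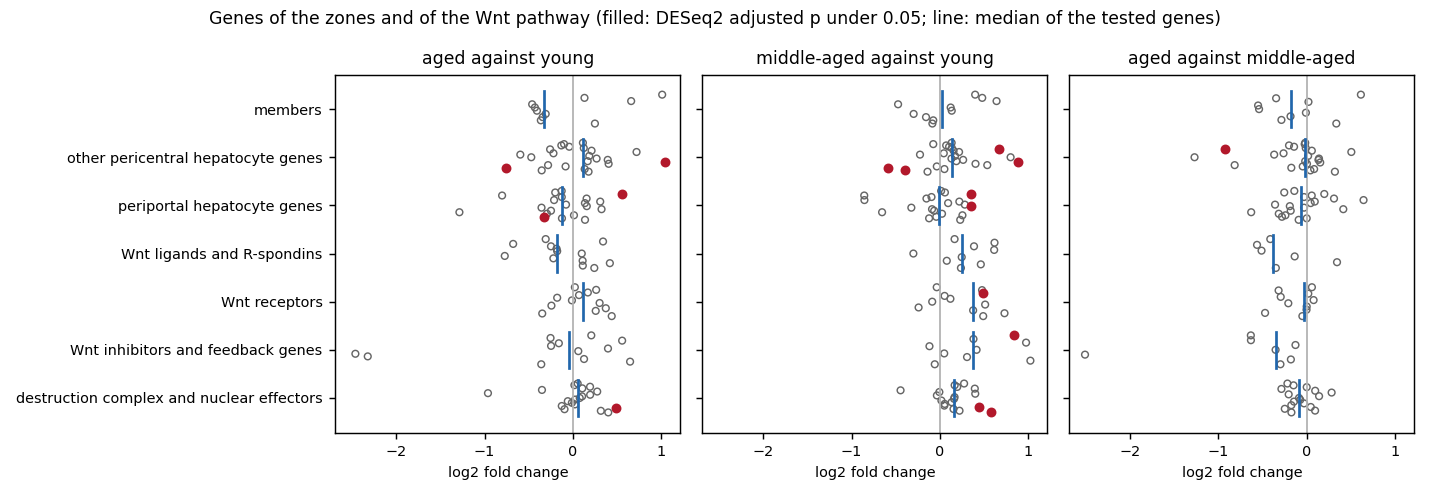
Log2 fold changes of tested genes in the markers (members) and 6 lists of zone and Wnt pathway genes, 1 dot per gene, filled for DESeq2 adjusted p under 0.05, with a line at the median of each list. The markers had medians of -0.33, 0.02 and -0.18 in the 3 pairs of ages and no filled dot.

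Markers of other cells were examined beside these lists. Sums over 8 Kupffer cell genes spanned 2756 to 4717 (young), 2407 to 3116 (middle-aged) and 2896 to 4655 (aged) normalised counts, with 1 gene called, Marco, higher in aged than in young livers by 2.46 (adjusted p = 0.0178; edgeR 0.075; up to 0.0858 without young replicate 1, 2 or 3). Of these 8 genes, 2 lay above 0 and 6 below in aged against young livers, with a median log2 fold change of -0.076. Marco had 790.8 normalised counts in aged replicate 1 against 96.1 to 261 in the other aged livers. Without that liver the difference was 1.43 on the log2 scale, still past the threshold. Stellate cell genes (8) summed to 1731 to 3473, 2216 to 4257 and 1986 to 3595, and lymphocyte genes (8) to 160 to 344, 136 to 659 and 172 to 259, with none called. Of 6 cholangiocyte genes, summing to 283 to 353, 120 to 448 and 224 to 408, Sox9, a transcription factor of bile duct cells, rose by 0.86 from young and by 0.95 from middle-aged to aged livers (adjusted p = 0.0169 and 0.0117; edgeR 0.074 and 0.148). These calls of Sox9 were lost in 5 of 12 and 4 of 10 fits without 1 liver, the latter being those that gave an adjusted p (up to 0.0873 and 0.161), among them the fits without aged replicate 2 or 4. Of the 4 cholangiocyte genes tested, Sox9 was the 1 above 0 and 3 lay below, for aged against young and for aged against middle-aged. No marker of these lists was at 0 in every library, and the part of cell composition in the results was not tested.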

How the data were processed

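RNA-seq counts were analysed in 12 livers. The authors deposited one table of raw read counts per gene without normalisation; per the labels' processing notes, STAR 2.5.2b, SAMtools 1.9, featureCounts and build GRCm38 were used. The kit named in the study's methods was directional. The counting setting was not given in the sources used here. The labels describe 4 young and 4 old livers, the design text fewer replicates, and the study also used a public atlas, so how these livers were prepared is uncertain. Groups came from titles. Symbols and exonic lengths came from GENCODE M21 (53360 of 53465 identifiers found); 92 spike-ins were left out of tests.

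All 28449 genes with a count entered DESeq2 1.42.0 (R 4.3.3) with age as the term, Wald tests for pairs of ages and a likelihood ratio test for 3 ages, with Benjamini-Hochberg adjustment and default independent filtering at 0.1. edgeR 4.0.16 quasi-likelihood tests were the alternative tool. Other alternatives were TMM factors, a filter of 10 counts in 4 samples, no independent filtering, fits of 2 ages only, a replicate block, the spike-in set as a term, each set alone and each liver left out. Correlations used 100000 permutations (720 exact ones within a set). Scripts were tested on simulated data.

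The markers and all 12 gene lists were chosen with earlier results of these data known. Named genes were all markers, 12 pathway and zone genes whatever their values, up to 5 called genes per list, and the 3 genes most like Glul. Tf of the 6 hepatocyte markers was not matched. The interaction of age and set and the 45 pairs were added after values had been seen.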

Additional observations from a re-analysis of the deposited data

Results flagged for a closer look

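Tbx3 differed between the spike-in sets in its change with age (DESeq2 likelihood ratio test of the interaction, adjusted p = 4.79e-05). Both sets contain 2 livers of every age, and the test was added after the values had been seen. Lgr5 in aged replicate 4 had 29.5 normalised counts, set apart from the 3 other aged livers at 35.6 to 36.7 by Dixon's criterion for 4 samples. It was the 1 sample that stood apart in 30 groups of 4 tested, where chance flags about 1 in 20.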

How the results depend on the processing

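Of 603 recomputed fold changes of the markers with an adjusted p (27 more had none), 554 kept their direction and side of the threshold, 36 turned and 13 newly passed. Of 396 of other named genes, 311 kept their call and 85 lost it. The cause of the changes below was not tested, except that fits within a set hold fewer livers. The main counts of called genes were 484 (aged against young), 727 (middle-aged against young), 117 (aged against middle-aged) and 865 (difference across the 3 ages). edgeR called 172, 280, 13 and 234. Without independent filtering 321, 443 and 62 were called for the pairs, and fits of 2 ages gave 290 for aged and 1166 for middle-aged against young. Within set A the pairs gave 137, 251 and 34, and within set B middle-aged against young gave 305 and aged against middle-aged 307. Leaving out 1 liver gave 237 to 1291 for aged against young, 345 to 1095 for middle-aged against young, 45 to 198 for aged against middle-aged and 496 to 1637 for 3 ages; the highest came without aged replicate 1.

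Markers called were 0 throughout the main tests. For the fits without 1 liver, no share of all tested genes is given, so their marker counts below have no background. Set A called 1 for aged and 2 for middle-aged against young, and set B called 2, 2 and 1 for the 3 pairs. Without 1 liver the count was 0 to 1 in each of the 4 tests: 1 for aged against young without young replicate 3 (Rnf43), middle-aged replicate 2 (Glul, adjusted p = 0.0181) or aged replicate 1 (Gulo), 1 for middle-aged against young without young replicate 3 (Rnf43) or middle-aged replicate 1 (Slc1a2), 1 for aged against middle-aged without young replicate 4 (Oat), and 1 for the difference across the 3 ages without young replicate 3 or 4 or middle-aged replicate 2.

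No pairing of livers by replicate number was seen in these values: deviations of same-numbered livers correlated by -0.104 to 0.007 on average, and 1 of 12 livers correlated best with one of its own number. Replicate numbers still followed the spike-in sets, with 1 and 2 in set A and 3 and 4 in set B at every age. With the replicate block 385 genes were called for middle-aged against young, 426 for aged against middle-aged and 451 for 3 ages; aged against middle-aged turned to -0.174 for Rhbg and -0.03 for Rnf43, and 1 of 9 correlations with Glul passed.

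Of the log2 fold changes that turned, the one past the threshold was Tbx3 in set B for middle-aged against young. For aged against middle-aged, edgeR gave -0.002 for Rhbg, and the set as a term -0.032 for Rnf43. Set A turned aged against young for Oat (0.015) and Rhbg (0.598), middle-aged against young for Glul (0.035), Lgr5 (-0.126), Axin2 (0.677), Rhbg (0.098), Lect2 (0.037) and Gulo (0.102), and aged against middle-aged for Axin2 (-0.127), Tbx3 (-0.027) and Rnf43 (-0.339). Set B turned Slc1a2 (-0.011) for aged against young, Oat (-0.267) and Tbx3 (-0.844) for middle-aged against young, and Rhbg (-1.487) and Lect2 (0.083) for aged against middle-aged. Without 1 liver, middle-aged against young ranged over both signs for Axin2 (-0.264 to 0.141), Glul (-0.271 to 0.013), Lgr5 (-0.064 to 0.266), Oat (-0.065 to 0.373) and Tbx3 (-0.068 to 0.705), as did aged against middle-aged for Lect2 (-0.101 to 0.087), Rhbg (-0.19 to 0.267) and Rnf43 (-0.127 to 0.173).

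Correlations with Glul turned to 0.156 for Tbx3 and 0.057 for Rnf43 as deviations from age means, to 0.132 for Axin2 and -0.068 for Rhbg in set A (where 1 passed), and to -0.074 for Lgr5 in set B. Without 1 liver they ranged from -0.657 to 0.015 for Rnf43 and from -0.128 (without middle-aged replicate 2) to 0.56 for Slc1a2, and 0 to 1 of the 9 passed. Of 64 recomputed correlations of the 4 pairs, 53 still passed and 11 did not, all with the same sign. Without the 2 livers farthest in Glul, Slc1a2 turned to -0.445. Counts were low for Rhbg, Lgr5, Axin2 and Wnt9b, and how far depth limited their values was not tested.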
